A study of Mus musculus with 12 samples.

Results

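The change that solvent-treated ET cells showed between 2 and 4 h was described from 4 of the 12 Affymetrix arrays of the series, chosen by their titles: both arrays of cells kept for 4 h with the solvent and both arrays of cells kept for 2 h with it. ET is a mouse cell line that the labels call fetal cortical thymic epithelium. All groups were grown in high-glucose DMEM with 10% fetal calf serum to near confluence, washed, and given fresh medium of the same kind. The solvent cells received 1,4-dioxane at 0.05% by volume, and the other arrays were of cells given 5 nM TCDD, a dioxin that activates the aryl hydrocarbon receptor, for 2, 4 or 6 h, or of solvent cells at 6 h. The series was made to find what TCDD changes, and the solvent arrays are its controls, so the comparison of 4 with 2 h shows how far the controls themselves moved. No array of untreated cells before the change of medium was used here, so the levels at 2 h are themselves levels after a wash and a change of medium.

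Immediate early genes are genes that cells switch on within minutes of serum, growth factors or mechanical stress, without the need for new protein. They encode transcription factors of the AP-1, Egr and Nr4a families, secreted growth factors, and inhibitors such as the MAP kinase phosphatases that end the signal. Their messenger RNAs are short-lived, so that levels commonly return towards baseline once the signal ends.

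Promoters of 4 genes from the comparison below are shown because they hold short motifs of the factors that control early genes, in genes lower and in genes higher at 4 h. They are RefSeq sequences of build GRCm38.p6, 5′ to 3′ on the strand of the gene, from 250 bases before the annotated start to 50 bases from it. Capitals mark the motif matches that a search of both strands found, with positions counted from the start of the gene. In Egr2, shown at 1 of its 5 annotated starts, they mark a CArG box, the site bound by serum response factor, at -72. In Nr4a1 they mark the EGR site GCGGGGGCG at -60, read on the opposite strand. In F3 they mark the AP-1 site TGACTCA at -135 and TATAAA at 44, both on the opposite strand. In Klf2 they mark an EGR site at -199.
Egr2, chr10:67537619-67537918, plus strand: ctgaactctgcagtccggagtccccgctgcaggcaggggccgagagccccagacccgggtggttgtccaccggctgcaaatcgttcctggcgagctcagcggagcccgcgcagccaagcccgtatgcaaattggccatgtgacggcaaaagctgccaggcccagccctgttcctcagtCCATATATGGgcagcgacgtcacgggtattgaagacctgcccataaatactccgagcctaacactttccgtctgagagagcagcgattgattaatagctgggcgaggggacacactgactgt
Nr4a1, chr15:101266596-101266895, plus strand: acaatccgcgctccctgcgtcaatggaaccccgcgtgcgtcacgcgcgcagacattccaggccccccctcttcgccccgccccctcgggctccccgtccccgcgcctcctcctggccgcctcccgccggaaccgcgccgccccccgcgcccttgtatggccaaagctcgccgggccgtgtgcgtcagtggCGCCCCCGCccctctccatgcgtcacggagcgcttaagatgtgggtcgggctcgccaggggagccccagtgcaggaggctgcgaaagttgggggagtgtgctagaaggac
F3, chr3:121723287-121723586, plus strand: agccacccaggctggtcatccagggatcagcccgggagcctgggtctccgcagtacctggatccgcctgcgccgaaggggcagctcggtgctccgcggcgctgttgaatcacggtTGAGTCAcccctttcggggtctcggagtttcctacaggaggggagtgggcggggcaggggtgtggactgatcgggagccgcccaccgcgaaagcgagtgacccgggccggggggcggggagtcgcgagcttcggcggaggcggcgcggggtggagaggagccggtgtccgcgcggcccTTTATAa
Klf2, chr8:72318812-72319111, plus strand: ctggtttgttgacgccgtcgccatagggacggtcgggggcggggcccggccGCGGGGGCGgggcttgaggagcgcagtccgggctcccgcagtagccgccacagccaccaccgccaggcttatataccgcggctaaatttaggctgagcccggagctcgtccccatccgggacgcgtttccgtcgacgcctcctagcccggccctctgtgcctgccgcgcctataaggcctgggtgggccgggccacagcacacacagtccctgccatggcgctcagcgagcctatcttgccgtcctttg
Of the 30 genes named below for the largest differences, 21 had a promoter in the RefSeq table, 9 of them lower and 12 higher at 4 h. These genes had 1 to 6 promoters each, and a gene was counted where any of its promoters held the motif. The CArG box was found in 1 of the 9 and 0 of the 12, and in 1.81% of all 27025 genes counted in the same way. The 1 is Egr2, which passed the filter on level given below only through arrays where it was high. The AP-1 site was found in 2 and 2 (5.95% of all genes), the EGR site in 3 and 1 (3.31%), TATAAA in 2 and 0 (15.67%), the NF-kB site GGGACTTTC in 0 and 1 (0.4%), and the cyclic AMP element TGACGTCA in 0 and 0 (2.03%). Of all 32851 single promoters, shares ran from 0.35% for the NF-kB site to 13.62% for TATAAA, with 1.63% for the CArG box. A CArG box can hold TATAAA within it, and none of the other motifs holds another. These matches are a description of letters in a window and no evidence of binding.

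Values were the deposited log2 levels, and differences are 4 h minus 2 h on the log2 scale. Of 22626 probe sets, 15762 had a mean of 4 or more over the 12 arrays and were tested, for 9391 named genes. Nothing says that the 2 arrays of a group came from separate cultures, so p-values measure only the spread between arrays, which may be technical. With 2 arrays a group the number of arrays limited the precision, and the median standard error of a difference was 0.223. Fewer cells of a kind and less RNA per cell cannot be told apart on such arrays.

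The 4 arrays did not fall into a 4 h pair and a 2 h pair. The correlation over the tested probe sets was 0.9944 between both 4 h arrays, 0.9927 and 0.9929 between each 4 h array and the first 2 h array, and 0.9765 and 0.9776 between each 4 h array and the second 2 h array. The 2 h arrays correlated with each other at 0.9782. Clustering of all 12 arrays put both 4 h arrays and the first 2 h array into a larger set of 7 arrays. The other 5 arrays, all those outside the largest of 4 clusters, are called the smaller set and do not form 1 cluster. They were the second 2 h array, the second TCDD array at 2 h, the first TCDD array at 4 h, and the second array of each treatment at 6 h. The SD of the differences over probe sets was 0.203 for the 4 h mean minus the first 2 h array, close to the 0.2 between both 4 h arrays, and 0.389 for the 4 h mean minus the second 2 h array. A difference of 1 or more either way was seen in 56 probe sets against the mean of the 2 h arrays, in 10 against the first of them and in 389 against the second. Medians of the gene lists described are therefore given also against the first 2 h array alone, which lay in the same set as both 4 h arrays. The deposited RNA quality probes of Actb moved with the sets: their 3′ minus 5′ difference was 0.8 on both 4 h arrays, against 0.7 and 0.6 on the 2 h arrays, and lay at 0.5 to 0.6 on the 5 arrays of the smaller set and at 0.7 to 0.8 on the 7 of the larger. That of Gapdh was 0.1 to 0.2 on the 4 arrays. The part of RNA quality in the results was not tested.

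No probe set passed at a limma adjusted p under 0.05 (0% of 15762), and the smallest adjusted p was 1. An unadjusted p under 0.05 was reached by 285 probe sets, 137 lower (0.869%) and 148 higher (0.939%), where 788 would be expected by chance. Non-overlap with a difference of at least 1 was seen in 35 probe sets lower at 4 h (0.222%) and 6 higher (0.0381%). Over genes, each by its probe set of highest mean, both 4 h arrays lay below both 2 h arrays in 1047 (11.1%) and above both in 1422 (15.1%). Against the first 2 h array alone, both 4 h arrays were lower in 2239 genes (23.8%) and higher in 2631 (28%). None of the values below is therefore a change that passed the test. The 15 lowest and 15 highest genes were named by their difference among probe sets whose groups did not overlap, so the sizes and the lack of overlap of these 30 are what chose them.

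**Figure D1:**
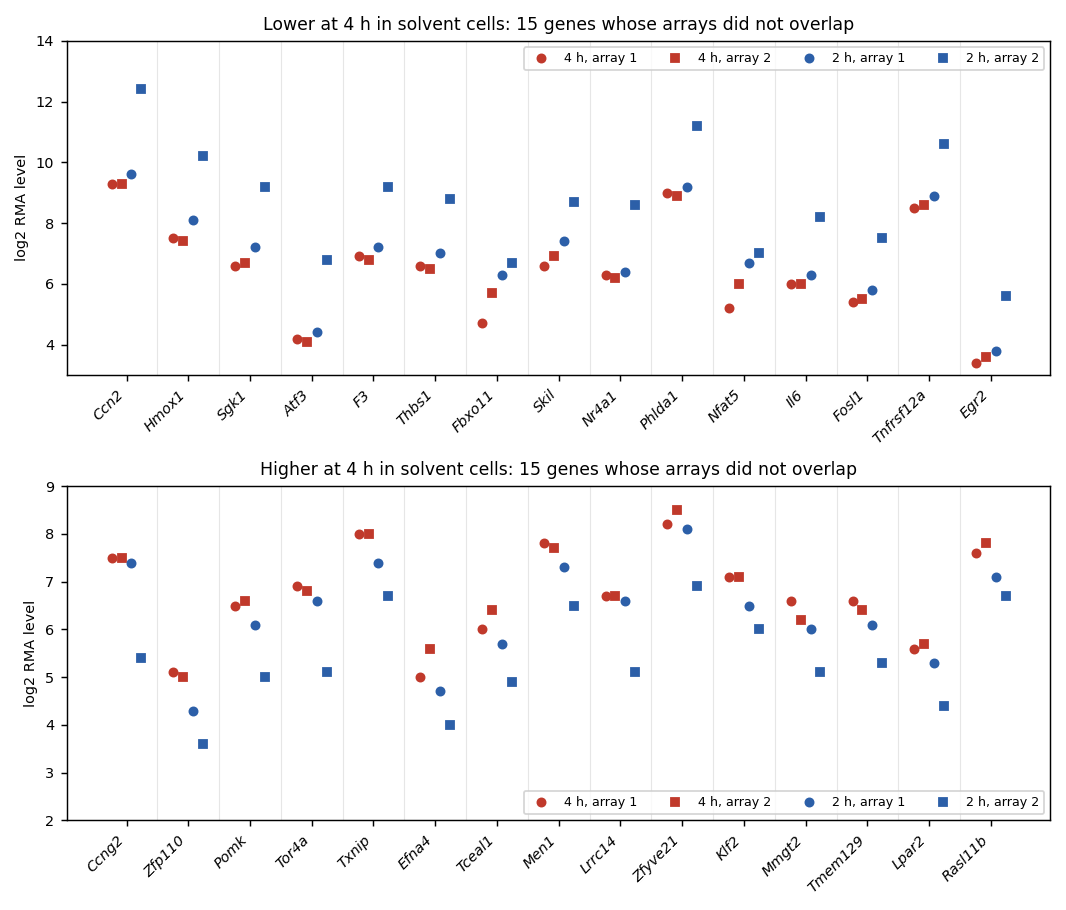
Log2 RMA level (y axis) of the 15 genes lowest and the 15 highest at 4 h in solvent cells (x axis), by single array; red is 4 h, blue is 2 h, circles are first arrays and squares second arrays. In all 30 genes the second 2 h array lies farthest from the 4 h arrays, and the first 2 h array lies closer to them.

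Among the 15 lower genes were immediate early transcription factors, secreted and matrix-bound signals, and stress genes. Their differences ran from -1.70 to -1.20. Against the first 2 h array they ran from -1.10 to -0.15, with a median of -0.35, and against the second from -3.10 to -1.40, with a median of -2.25. The second 2 h array thus gave the larger difference in each of the 15. In Fbxo11, a subunit of a ubiquitin ligase, the 2 h arrays lay closer together than the 4 h arrays, at 4.7 and 5.7 at 4 h against 6.3 and 6.7 at 2 h. Nfat5, a factor of the response to osmotic stress, had 5.2 and 6.0 at 4 h, against 6.7 and 7.0 at 2 h. Tnfrsf12a, the receptor of the cytokine TWEAK, had 8.5 and 8.6 at 4 h, against 8.9 and 10.6 at 2 h, which is the more common pattern.

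Gene lists and their members were chosen with earlier results of these data known, so the shares of this list and the later ones are a description. Of the list of AP-1, Egr and Nr4a transcription factors, 15 genes were tested and 8 were lower on both 4 h arrays than on both 2 h arrays, beside 11.1% of all genes. None (0) were higher, beside 15.1% of all genes. The 8 include Egr2, which passed the filter only through arrays where it was higher. The median difference was -0.65, against 0 over all genes. It was -0.15 against the first 2 h array and -1.30 against the second. Atf3, a factor induced by stress and growth signals, had levels of 4.2 and 4.1 at 4 h, against 4.4 and 6.8 at 2 h (-1.45 ± 0.86 SE). Nr4a1, an orphan nuclear receptor induced by serum, had 6.3 and 6.2 at 4 h, against 6.4 and 8.6 at 2 h (-1.25 ± 0.758 SE). In both genes the first 2 h array was within 0.3 of the 4 h arrays and the second stood far above them. Egr2, a zinc finger factor of growth responses, had 3.4 and 3.6 at 4 h, against 3.8 and 5.6 at 2 h, with the 4 h levels below the filter value of 4, which it passed through arrays where it was higher; differences are compressed in that range. Fosl1, an AP-1 subunit, had 5.4 and 5.5 at 4 h, against 5.8 and 7.5 at 2 h by 1 probe set, and 7.3 and 7.2 against 7.6 and 9.0 by the other. Junb, another AP-1 subunit, had 7.6 and 7.7 at 4 h, against 7.9 and 9.2 at 2 h. Its partner Jund, which most cells express constantly, had 9.0 on both arrays at 4 h, against 9.4 and 9.9 at 2 h. Jund was the 1 member of the list with an unadjusted p under 0.05 (-0.65, limma adjusted p = 1).

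The best known members did not separate the times. Fos had 4.5 and 4.4 at 4 h, against 4.4 and 6.0 at 2 h. Egr1 had 7.5 and 7.3 at 4 h, against 7.4 and 8.7 at 2 h. Jun had 7.5 and 7.6 at 4 h, against 7.5 and 8.3 at 2 h, and Srf, the serum response factor that binds CArG boxes, had 7.2 and 7.2 against 7.1 and 8.7. In all 4 genes the first 2 h array lay within 0.2 of the 4 h arrays or among them, and the second lay above. Egr3, Egr4 and Nr4a3 differed by -0.25 to -0.10, with overlap.

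Of 18 other early transcription factors tested, 8 were lower (44.4%) and 2 higher (11.1%) without overlap, beside 11.1% and 15.1% of all genes. Their median difference was -0.50 (-0.075 against the first 2 h array, -0.75 against the second). Klf10, a factor induced by TGF-beta, had 6.5 and 6.5 at 4 h, against 6.8 and 8.2 at 2 h. Maff, a small Maf protein, had 6.7 and 6.8 against 7.1 and 8.1, and Ets2 had 7.0 and 7.1 against 7.4 and 8.4 (-0.85, limma adjusted p = 1). Myc, a driver of growth, had 8.3 on both 4 h arrays, against 8.4 and 9.4 at 2 h. The members higher at 4 h were Klf2, described below, and Cebpd, a factor of the acute-phase response, at 10.2 and 10.4 against 10.0 on both 2 h arrays.

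Of 12 MAP kinase feedback genes, which end growth factor signals, 3 were lower (25%) and 0 higher without overlap, beside 11.1% and 15.1% of all genes, and 9 overlapped. Their median was -0.275 (-0.025 against the first 2 h array, -0.40 against the second). Against the first 2 h array alone both 4 h arrays were lower in 4 of these 12 genes and higher in 5, beside 23.8% and 28% of all genes. Phlda1, a pleckstrin-domain protein induced by growth factors, had 9.0 and 8.9 at 4 h, against 9.2 and 11.2 at 2 h. Dusp1, a phosphatase that switches MAP kinases off, had 7.3 and 7.3 at 4 h, against 7.5 and 8.3 at 2 h. Dusp6, the phosphatase of ERK, had 7.8 and 7.8 at 4 h, against 7.6 and 9.7 at 2 h, so that the 4 h arrays lay above the first 2 h array and below the second. Dusp2 had 4.5 and 4.6 at 4 h, against 4.9 and 5.1 at 2 h, and is the member of the 3 whose 2 h arrays lay close together.

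Of 24 early-response genes of messenger RNA decay, checkpoint and survival, 6 were lower (25%) and 3 higher (12.5%) without overlap, beside 11.1% and 15.1% of all genes. Their median was -0.35. Against the first 2 h array the median was 0.025. Sgk1, a kinase induced by serum and glucocorticoids, had 6.6 and 6.7 at 4 h, against 7.2 and 9.2 at 2 h. Its difference was -1.55 ± 0.564 SE (limma adjusted p = 1), and -0.55 against the first 2 h array. Zfp36l2, a protein that destabilises AU-rich messenger RNAs, had 8.5 and 8.7 at 4 h, against 9.0 and 10.3 at 2 h (-1.05, limma adjusted p = 1). In Sgk1 and Zfp36l2 both 2 h arrays stood above both 4 h arrays. In Errfi1, an inhibitor of the EGF receptor, they did not: it had 7.5 and 7.6 at 4 h, against 7.5 and 10.6 at 2 h. Zc3h12a, a ribonuclease that degrades cytokine messenger RNAs, lay the other way, at 5.7 and 5.8 against 5.5 and 4.8 (0.60, limma adjusted p = 1).

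Some genes of secreted signals, and the receptor gene F3 and the enzyme gene Ptgs2, had their highest level by far on the second 2 h array. Ccn2, a connective tissue growth factor induced by TGF-beta and by YAP, had 9.3 on both 4 h arrays, against 9.6 and 12.4 at 2 h (-1.70 ± 1.196 SE, limma adjusted p = 1). Thbs1, the adhesive glycoprotein thrombospondin, had 6.6 and 6.5 at 4 h, against 7.0 and 8.8 at 2 h, and F3, the coagulation receptor tissue factor, had 6.9 and 6.8 against 7.2 and 9.2. In these genes, all from the list of YAP targets and matricellular genes, the order of the arrays was the same. Of the 15 genes of that list 5 were lower (33.3%) and 2 higher (13.3%) without overlap, beside 11.1% and 15.1% of all genes. The median of the list was -0.25 (-0.05 against the first 2 h array). Il6, an inflammatory cytokine, had 6.0 on both 4 h arrays, against 6.3 and 8.2 at 2 h. Of 24 chemokine and cytokine genes, 6 were lower (25%) and 1 was higher (4.17%) without overlap, beside the same shares of all genes. Their median was -0.175 (0.05 against the first 2 h array, -0.25 against the second). Ptgs2, the inducible cyclooxygenase of prostaglandin synthesis, had 5.4 and 5.6 at 4 h, against 5.6 and 9.6 at 2 h. Ereg, an EGF receptor ligand, had 4.7 and 5.2 at 4 h, against 4.9 and 8.5 at 2 h, and Hbegf, another, had 7.0 on both 4 h arrays against 6.9 and 9.1. Ptgs2, Ereg and Hbegf had some of the largest differences (-2.10, -1.75 and -1.0), but their groups overlapped and the difference from the first 2 h array was -0.10, 0.05 and 0.10. The third EGF receptor ligand tested, Tgfa, had 5.5 on both 4 h arrays, against 5.7 and 5.4 at 2 h. The groups of all 3 ligands overlapped, and their median was -1.0 (0.05 against the first 2 h array).

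Of the 29 lists looked at, TGF-beta and BMP signalling held the largest number of members with an unadjusted p under 0.05. Over all probe sets tested, 0.869% were lower and 0.939% higher with such a p, fewer than expected by chance. Of 23 genes tested in the list, 9 were lower (39.1%) and 3 higher (13%) without overlap, beside 11.1% and 15.1% of all genes. Such a p was reached by 5 of the 23, all lower: Skil, Inhba, Smad6, Id4 and Tgfb2 (0.0215 to 0.0444, adjusted p = 1 by limma). The median difference was -0.25. It was -0.05 against the first 2 h array and -0.55 against the second. Skil, a nuclear repressor of SMAD proteins, had 6.6 and 6.9 at 4 h, against 7.4 and 8.7 at 2 h (-1.30 ± 0.476 SE). Smad6 and Smad7, the inhibitory SMADs, had 7.7 and 7.6, and 6.9 and 6.9, at 4 h, against 8.0 and 8.7, and 7.2 and 7.8, at 2 h. Both 2 h arrays of these 3 genes lay at least 0.3 above both 4 h arrays. Inhba, the activin subunit, had 5.9 and 6.1 at 4 h, against 6.2 and 7.6 at 2 h. Bmp4, a ligand of the family, lay the other way, at 8.9 and 8.8 against 8.4 and 8.0, and so did Tgfb3, at 7.4 and 7.3 against 7.0 on both 2 h arrays. Of the main TGF-beta receptors, Tgfbr2 differed by -0.20 without overlap, while Tgfbr1 overlapped.

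**Figure D2:**
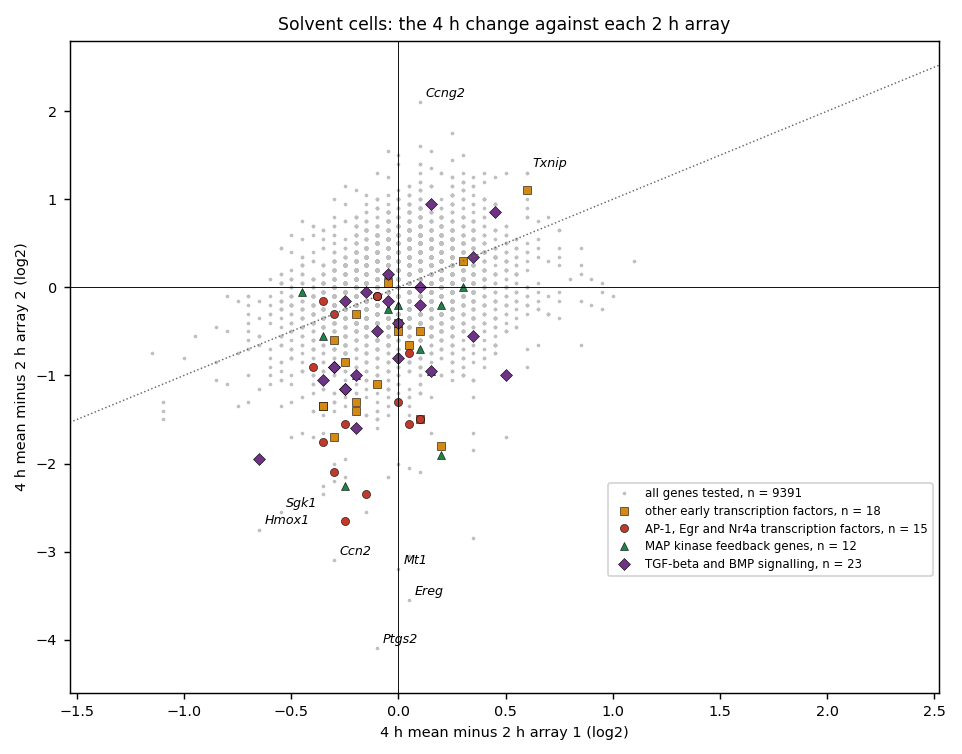
Each point is 1 of 9391 genes, placed by the 4 h mean minus the first 2 h array (x axis, log2) and minus the second 2 h array (y axis, log2); coloured points are members of 4 gene lists and the dotted line marks equal differences. The early transcription factors and feedback genes extend down the y axis and stay near 0 on the x axis, and Ptgs2, Ereg, Mt1 and Ccn2 lie lowest of the genes labelled.

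Stress genes divided. Hmox1, haem oxygenase, had 7.5 and 7.4 at 4 h, against 8.1 and 10.2 at 2 h (-1.70 ± 0.893 SE), and -0.65 against the first 2 h array. Nfe2l2, which encodes the oxidative stress factor NRF2, had 6.2 and 6.1 at 4 h, against 6.5 and 7.8 at 2 h (-1.0, limma adjusted p = 1). Mt1 and Mt2, the metal-binding metallothioneins, had 7.2 and 7.4, and 6.8 and 6.7, at 4 h, against 7.3 and 10.5, and 6.4 and 9.6, at 2 h. The groups of both metallothioneins overlapped. Mt1 is given by its probe set of highest level, and its other probe set had 4.6 and 4.5 at 4 h, against 4.5 and 5.9 at 2 h. Of the 21 genes of metal and NRF2 responses, 5 were lower (23.8%) and 1 was higher (4.76%) without overlap, with a median of -0.25 (0 against the first 2 h array). All genes gave 11.1% lower and 15.1% higher, to be read beside this list and those that follow. Of 24 hypoxia and glycolysis genes, 9 were lower and 1 higher, with a median of -0.15 (-0.05 against the first 2 h array). Vegfa, the endothelial growth factor, had 7.0 and 6.9 at 4 h, against 7.2 and 8.3 at 2 h. Pfkfb3, a stimulator of glycolysis, had 5.1 on both 4 h arrays, against 5.6 and 6.4 at 2 h by its probe set of highest level. Its other probe set gave 5.1 and 4.8 at 4 h, against 5.1 and 5.0 at 2 h, with overlap. The abundant glycolytic enzymes Ldha and Pkm differed by 0.00 and -0.05. Hes1, the classic Notch target, had 4.8 on both 4 h arrays, against 5.0 and 6.2 at 2 h; of 15 Notch genes 5 were lower and 0 higher, with a median of -0.15 (0 against the first 2 h array). Of 24 genes of sterol and fatty acid synthesis, 7 were lower and 3 higher without overlap, with a median of -0.15 (0 against the first 2 h array). Sqle, the squalene epoxidase of that list, had 5.9 on both 4 h arrays, against 6.0 and 7.4 at 2 h. Bhlhe40, a clock repressor that also responds to serum, had 5.7 and 5.9 at 4 h, against 6.1 and 7.8 at 2 h.

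Genes higher at 4 h differed less. The 15 highest had differences of 0.80 to 1.10, 0.10 to 0.75 against the first 2 h array (median 0.45) and 1.00 to 2.10 against the second (median 1.30). Txnip, an inhibitor of thioredoxin and of glucose uptake that rises with glucose, had 8.0 on both 4 h arrays, against 7.4 and 6.7 at 2 h (0.95 ± 0.354 SE, limma adjusted p = 1), and its other probe set had 7.1 and 7.2 against 6.8 and 6.3. Klf2, a zinc finger factor linked to quiescence and flow, had 7.1 on both 4 h arrays, against 6.5 and 6.0 at 2 h (0.85 ± 0.278 SE, limma adjusted p = 1). In both genes each 2 h array lay at least 0.6 below the 4 h arrays for the probe set given first. Ccng2, an atypical cyclin induced by FoxO factors in resting cells, had 7.5 on both 4 h arrays, against 7.4 and 5.4 at 2 h, so its difference of 1.10 was 0.10 against the first 2 h array. Its other probe set overlapped, at 5.7 and 5.8 against 5.7 and 4.9. Sesn1, a sestrin of the FoxO and p53 responses, had 7.4 and 7.5 at 4 h, against 7.0 and 6.6 at 2 h. Not every gene of this group lay that way. Of 22 glucose-sensing and FoxO quiescence genes, 6 were higher (27.3%) and 4 lower (18.2%) without overlap, beside 15.1% and 11.1% of all genes. Their median was 0.025 (-0.05 against the first 2 h array). Arrdc4, a relative of Txnip that likewise rises with glucose, had 5.3 on both 4 h arrays, against 5.4 and 6.8 at 2 h.

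The other genes of the 15 are known for varied functions. Pomk, a kinase of dystroglycan glycosylation, had 6.5 and 6.6 at 4 h, against 6.1 and 5.0 at 2 h. Men1, which encodes the tumour suppressor menin, had 7.8 and 7.7 at 4 h, against 7.3 and 6.5 at 2 h, with overlap in its other probe set. Efna4, an ephrin ligand, had 5.0 and 5.6 at 4 h, against 4.7 and 4.0 at 2 h (0.95 ± 0.284 SE, limma adjusted p = 1). Lpar2, a lysophosphatidic acid receptor, had 5.6 and 5.7 at 4 h, against 5.3 and 4.4 at 2 h. These 4 genes shared the order of the arrays seen in Txnip. Zfp110, Zfyve21, Tor4a, Tceal1, Lrrc14, Mmgt2, Tmem129 and Rasl11b completed the 15, with differences of 0.80 to 1.10, and 1 probe set each of Zfp110 and Zfyve21 overlapped.

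Several lists had more members higher than lower. Of 17 NF-kB subunits and feedback genes, 5 were higher and 1 lower without overlap, beside 15.1% and 11.1% of all genes, with a median of 0.10 (0 against the first 2 h array). Birc3, an inhibitor of apoptosis induced by NF-kB, had 6.2 and 6.1 at 4 h, against 5.7 and 5.6 at 2 h. Of 27 genes of the unfolded protein and amino acid response, 7 were higher and 1 was lower, with a median of 0 (0.05 against the first 2 h array). Chac1, a glutathione-degrading enzyme of that response, had 7.1 on both 4 h arrays, against 6.7 and 6.3 at 2 h. Of 22 matrix remodelling genes, 7 were higher and 3 lower, with a median of 0.025 (0.10 against the first 2 h array). Adamts4, a protease of the matrix proteoglycan aggrecan, had 5.9 and 5.7 at 4 h, against 5.3 on both 2 h arrays (0.50 ± 0.16 SE, limma adjusted p = 1). Birc3 and Adamts4 are among the genes in which both 2 h arrays lay close together. Socs3, a feedback inhibitor of cytokine signals, had 8.1 and 8.3 at 4 h, against 7.8 and 7.2 at 2 h. Cell division genes showed little: of 26 G1/S genes 3 were higher and 2 lower, and of 26 G2/M genes 4 were higher and 4 lower. Their medians were 0.175 and 0.05 (0 and -0.025 against the first 2 h array). Those of the other 11 lists lay between -0.125 and 0 (-0.025 and 0.15 against the first 2 h array).

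**Figure D3:**
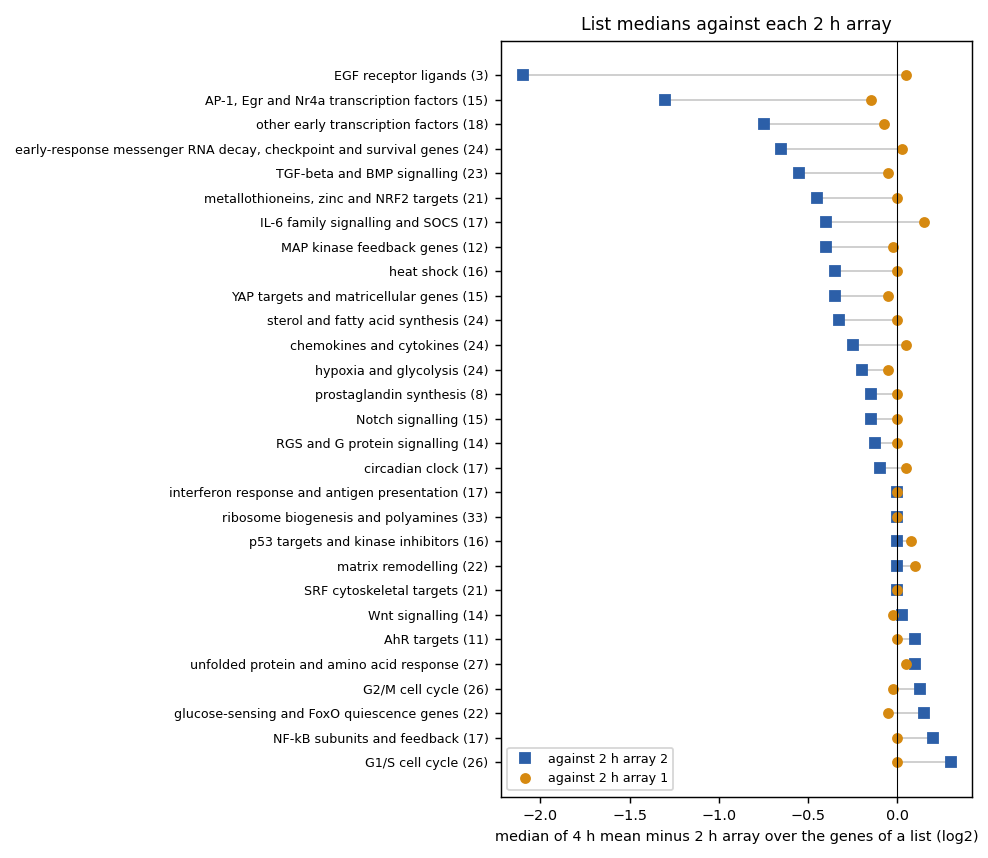
Median over the genes of each list (y axis, number of genes tested in brackets) of the 4 h mean minus the first (orange circles) and minus the second (blue squares) 2 h array, in log2 (x axis). Against the first array the medians of all 29 lists lie between -0.15 and 0.15, while against the second the EGF receptor ligands (3 genes) lie at -2.10, the AP-1, Egr and Nr4a factors at -1.30 and the G1/S genes at 0.30.

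In some genes both 2 h arrays stood together and away from both 4 h arrays, and these did not rest on the second 2 h array. They were chosen after their values were seen, as some of those with the widest gap between the groups. Runx1, a transcription factor of blood and mesenchyme, had 4.5 and 4.6 at 4 h, against 5.3 and 5.4 at 2 h (-0.80 ± 0.169 SE, limma adjusted p = 1). Dido1, a chromatin reader, had 5.7 on both 4 h arrays, against 6.5 and 6.8 at 2 h (-0.95 ± 0.196 SE, limma adjusted p = 1). Efemp1, a fibulin of the matrix, had 5.3 and 5.6 at 4 h, against 6.3 on both 2 h arrays. Wnk1, a kinase that controls ion transport, had 7.6 on both 4 h arrays, against 8.3 on both 2 h arrays. In each of these 4 genes the gap between the groups was wider than the spread within either. Higher at 4 h in this way were Usp3, a deubiquitinase of histones, at 5.8 on both arrays against 5.1 and 5.2, and Chmp1b, a subunit of the ESCRT-III membrane-cutting complex, at 5.0 on both arrays against 4.3 and 4.2. Tcf21, a mesenchymal transcription factor, had 7.8 on both 4 h arrays, against 7.2 and 7.0 at 2 h. Runx1 and Dido1 had the smallest unadjusted p of all probe sets tested.

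The TCDD arrays at 4 and 2 h are separate arrays and give the same interval in cells that also received TCDD. No probe set passed there either (limma adjusted p = 1 at the smallest, 217 with an unadjusted p under 0.05). Over genes, non-overlap was seen in 514 lower (5.47%) and 585 higher (6.23%). The solvent and TCDD differences had the same sign in 45.1% of the 9391 genes. A difference of 0 in either treatment counted as not the same sign, so the rest were not all opposite. The correlation across genes was 0.273, and 0.048 for the 4 h solvent mean minus the first 2 h solvent array. Genes are not independent replicates, and both treatments had their second 2 h array in the smaller set. Of the 15 lower genes, 15 had a negative difference in TCDD cells (-1.40 to -0.15) and 1, Sgk1, did not overlap. The -1.40 was that of Egr2, which passed the filter only through arrays where it was high, and Nr4a1 and Sgk1 came next at -1.25. Sgk1 had 7.9 on both TCDD arrays at 4 h, against 8.7 and 9.6 at 2 h. Of the 15 higher genes, 12 were higher in TCDD cells and 2, Pomk and Klf2, did not overlap. Klf2 had 7.2 and 7.0 with TCDD at 4 h, against 6.4 and 6.9 at 2 h. Runx1 had 4.9 and 4.6 with TCDD at 4 h, against 5.0 and 5.2 at 2 h, and Adamts4 had 5.6 and 5.5 against 5.1 and 4.9. Of the 7 genes named above for a wide gap, Runx1, Dido1 and Usp3 lay the same way in TCDD cells without overlap. The other 4 overlapped there, and so did Ints6, R3hdm1, Nfat5 and Zfp110. Those were not among the 7, though their gap in solvent cells was as wide as that of Runx1. Efemp1 lay the other way on average, at 5.9 and 6.4 with TCDD at 4 h against 6.1 and 5.8 at 2 h (0.20), and so did Chmp1b, at 3.6 and 5.6 against 4.8 and 4.6 (-0.10). Wnk1 had 6.5 and 8.1 against 8.1 and 7.2, and Tcf21 had 8.1 and 9.0 against 8.4 and 8.0.

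The TCDD arrays allow the interval to be read within each array set, with 1 array a time and no test. The smaller set is not 1 cluster, so its arrays are not a matched pair. The first TCDD array at 4 h is in the smaller set, while at 2 h the second array of each treatment is. First minus second arrays of TCDD at 4 h correlated at -0.553 with those of TCDD at 2 h, but at 0.064 with those of solvent at 2 h. Within the smaller set, 15 of the 15 lower genes were lower at 4 h with TCDD, with differences from -2.6 to -0.2 (median -1.30), where 40.6% of all genes were lower. The 15 include Egr2, which gave the -2.6 and passed the filter only through arrays where it was high. The next lowest was Nr4a1 at -2.2. Within the larger set 11 of the 15 were lower (median -0.20), where 41.5% of all genes were. Of the 15 higher genes, 9 were higher and 6 lower at 4 h with TCDD in the smaller set (-1.4 to 1.3, median 0.30), where 48.5% of all genes were higher. In the larger set 11 of them were higher and 1 was lower (median 0.20), where 38.8% of all genes were higher. For the AP-1, Egr and Nr4a list the medians were -1.0 in the smaller and -0.10 in the larger set. Nr4a1 stood at 6.7 on the 4 h and 8.9 on the 2 h TCDD array of the smaller set, and at 6.2 and 6.5 on those of the larger set. Egr2 stood at 4.3 and 6.9 in the smaller set, and at 3.6 and 3.8 in the larger set. Nr4a1 was thus high at 2 h on the smaller-set array of each treatment. The solvent array took part in choosing Nr4a1, so only its TCDD levels are separate from that choice. Egr2 passed the filter only through arrays where it was high, so its levels are a description and no support.

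The 6 h solvent arrays extend the course, though their description names 4 h while title and time field give 6 h, and they are set against the same 2 h arrays. In the larger set, solvent levels of Ccn2 at 2, 4 and 6 h were 9.6, then 9.3 and 9.3, then 9.6. In the smaller set Ccn2 was 12.4 at 2 h and 9.9 at 6 h, and Nr4a1 8.6 and 6.1. With TCDD in the smaller set, Ccn2 was 12.7 at 2 h and 11.2 at 4 h, and Nr4a1 8.9 and 6.7. These TCDD arrays differ in treatment from the solvent ones and are not joined with them into 1 course. By its probe set of highest level Mt1 followed the set more than the time: in the smaller set it was 10.5 at 2 h and 10.8 at 6 h with solvent and 10.1 at 4 h with TCDD, and in the larger set it was 7.2 to 7.4 at all 3 times with solvent. Its other probe set was lower at the later times in the smaller set, at 5.9 at 2 h and 5.0 at 6 h with solvent and 5.1 at 4 h with TCDD, and 4.5 to 4.6 in the larger set with solvent. Sgk1 was 7.2 at 2 h, 6.6 and 6.7 at 4 h and 7.3 at 6 h on the solvent arrays of the larger set, so its 6 h level was back at that of 2 h. Klf2 was 6.5, then 7.1 and 7.1, then 7.4 on the same arrays. Both 2 h arrays took part in choosing Ccn2, Nr4a1, Sgk1 and Klf2, so these courses are a description.

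**Figure D4:**
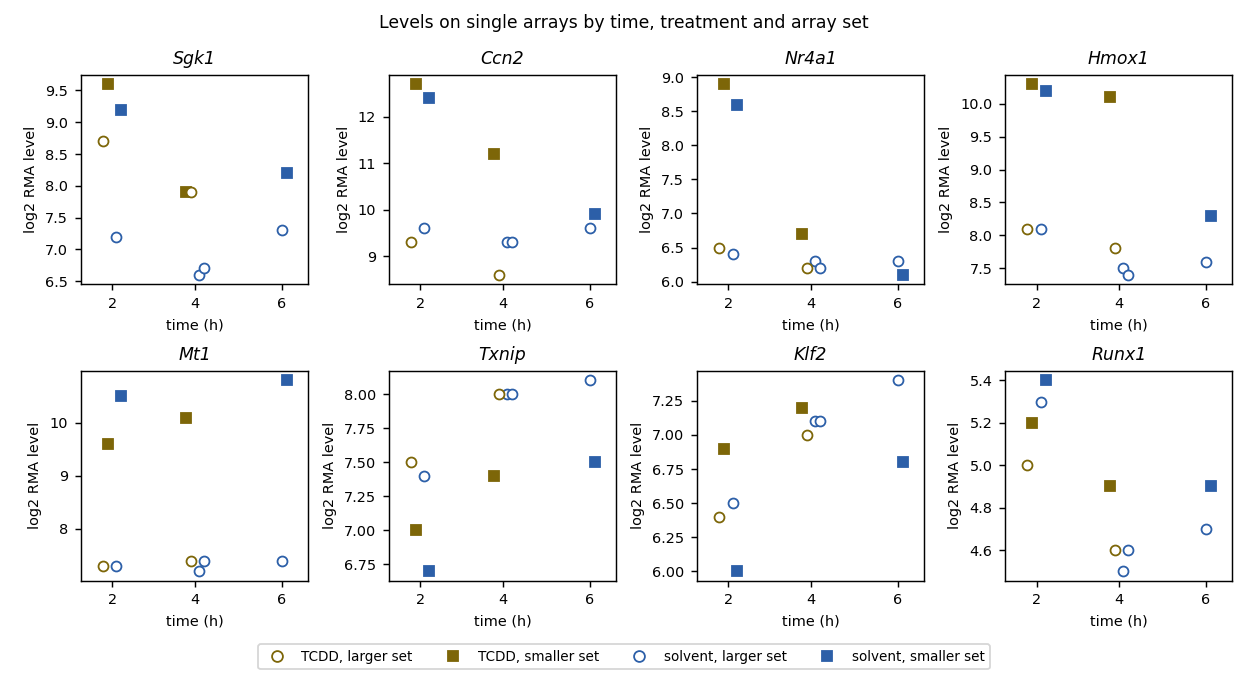
Log2 RMA level (y axis) of 8 genes on single arrays at 2, 4 and 6 h (x axis); blue is solvent, brown is TCDD (shown at 2 and 4 h), open circles are the larger set of arrays and filled squares the smaller set. Ccn2, Nr4a1 and Sgk1 are highest on the filled squares at 2 h, Mt1, by its probe set of highest level, is high on every filled square, and Runx1 is lower at 4 h than at 2 h on the arrays of both sets.

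The labelled cell type was checked against its markers on the 4 arrays. Of 11 cortical epithelial markers found on the array, 6 had a mean of 4 or more over the 12 arrays. They were Cxcl12 (12.308), Ctsl (11.358), Ccl25 (5.9), Krt8 (5.042), Dll4 (4.633) and Foxn1 (4.358), while Epcam, Krt18, Prss16, Ly75 and Cd83 lay below. The mean of the list was 5.6 and 5.555 on the 4 h arrays, and 5.618 and 5.682 on the 2 h arrays. Of 8 medullary epithelial markers 5 reached 4: Cldn3 (5.95), Aire (4.992), Krt5 (4.967), Cd40 (4.692) and Krt14 (4.367). Of 15 fibroblast and mesenchyme markers, 15 reached 4, with a mean level of 10.6 and 10.5 on the 4 h arrays and 10.4 and 10.5 on the 2 h arrays. Of 8 haematopoietic markers 5 reached 4: Laptm5 (5.658), Cd3e (5.558), Cd4 (5.533), Cd68 (4.375) and Cd8a (4.142). Of 6 endothelial markers 1, Kdr (4.525), reached 4. The defining Ptprc (mean 2.8) and Pecam1 (3.22) lay below. Each list's mean differed by no more than 0.25 among the 4 arrays. Of the fibroblast list, 6 genes were higher (40%) and 1 was lower (6.67%) without overlap at 4 h, beside 15.1% and 11.1% of all genes. Its median was 0.10, and its part in the results above was not tested.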

How the data were processed

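RNA of ET cells was measured on 12 Affymetrix arrays, in 6 groups of 2 by treatment and time. The deposited values are log2 levels for each probe set. Per the submitters' processing notes the authors used RMA, whose version is not given in the sources used here. This method removes background, gives every array the same distribution and summarises the probes of a set, so a shift of all genes together cannot be seen. Values ran from 2.2 to 14.1 with 1 decimal and had a median of 5.1 on each array. Titles set the groups. The description and protocol of both 6 h solvent arrays name 4 h, and the treatment field of the second 4 h TCDD array names the solvent. That array had Tiparp at 8.5, Cyp1b1 at 12.0 and Cpox at 8.7, each by its probe set of highest level. The solvent arrays had 4.5 to 6.1, 9.7 to 10.6 and 6.3 to 7.0 for these targets of the aryl hydrocarbon receptor.

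Control probe sets (64) were left out, as were those with a mean log2 under 4. Of 22626 probe sets, 20380 had 1 symbol in the platform annotation, 691 had several and 1555 none; 20351 were matched to RefSeq (GRCm38.p6). A mean per group was fitted over 12 arrays with limma 3.58.1 in R 4.3.3 (6 residual degrees of freedom, prior 3.8, prior SD 0.218), and contrasts were tested two-sided with Benjamini-Hochberg adjustment over all probe sets tested. Errors are standard errors of this fit. The code was tested on simulated data. Complete-linkage clustering of the arrays, with 4 clusters, gave the larger set (the largest cluster) and the smaller set (all other arrays).

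Named were up to 15 genes each way past the test (none), the 15 highest and 15 lowest by difference without overlap, and up to 4 members of each of 29 lists by size of difference. Genes outside that rule (the rest of the early-gene lists, and some of those with the widest gap) were chosen after their values were seen. Members and lists were chosen with earlier results of these data known. Alternatives were the arrays fitted, the replicate number or array set as a block, filters, the prior variance, single arrays left out, and the 6 h arrays put with the 4 h ones; the comparison with the first 2 h array alone and the values within each set were added after seeing the data.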

Additional observations from a re-analysis of the deposited data

Results flagged for a closer look

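Of 130 named probe sets, 1 had 4 h arrays on opposite sides of the 2 h arrays in solvent and in TCDD cells, with no overlap in either. Cpox, coproporphyrinogen oxidase of haem synthesis and a target of the aryl hydrocarbon receptor, had solvent levels of 7.0 and 6.9 at 4 h, against 6.6 and 6.3 at 2 h. Its TCDD levels were 8.2 and 8.7 at 4 h, against 9.0 and 8.8 at 2 h. The TCDD change minus the solvent change was -0.95 (limma adjusted p = 1), so the difference did not pass. Its other probe set overlapped in solvent, at 5.6 on both 4 h arrays against 5.6 and 5.7. Over all probe sets tested, 143 lay on opposite sides in this way and 355 on the same side.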

How the results depend on the processing

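The count of probe sets past the limma test for solvent 4 h against 2 h was 0 in each setting tried, with the replicate number as a block included (352 at an unadjusted p under 0.05, against 285). That number does not pair the arrays: first minus second arrays at 4 and 2 h correlated at 0.035. The TCDD count was 0 to 61 with 1 array left out (61 without the second 4 h array, whose treatment field names the solvent). Of probe sets without overlap and with a difference of 1 or more, 35 were lower and 6 higher; with 1 array left out these counts ran from 7 (no second 2 h array) to 269 (no first 2 h array) and from 3 to 120 (same arrays), and with the 6 h arrays put with the 4 h ones they were 4 and 1. Without the first 4 h array 13 were higher, and without the second 67 were lower.

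With 1 array left out, 19 named genes turned sign: Errfi1 (-3.05 to 0.05), Dusp6 (-1.90 to 0.20), Ereg (-3.55 to 0.05), Hbegf (-2.10 to 0.10), Tgfa (-0.20 to 0.10), Fgf7 (-1.20 to 0.10), Fhl2 (-1.65 to 0.15), Ankrd1 (-1.85 to 0.35), Lfng (-0.45 to 0.05), Nfil3 (-0.65 to 0.05), Cry1 (-0.70 to 0.10), Dnajb1 (-1.45 to 0.05), Mt2 (-2.85 to 0.35), Cdkn2a (-0.15 to 0.75), Cdt1 (-0.05 to 0.95), Plk1 (-0.05 to 0.65), Rrs1 (-1.25 to 0.05), Tiparp (-1.25 to 0.35) and Ptger1 (-0.35 to 0.05). The array was the second 2 h array in all but Tgfa and Ptger1, where it was the first. With the array set as a block, Timp3 (0.01), Mt2 (0.30), Cdkn2a (-0.01), Rrs1 (0.07) and Ifit2 (-0.05) turned sign. The cause was not tested. In these settings no named probe set passed, with a smallest adjusted p of 0.45 (limma, without the first 2 h array). In all other settings tried, each kept its direction or had a difference of 0. With 2 arrays a group, a gene that did not pass is not shown to be unchanged.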
